A study of Mus musculus with 24 samples.

Results

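A set of 10 genes of the type I interferon response were followed in the terminal ileum of young mice after early-life courses of a macrolide. The genes were chosen by name: Irf7, Irf3, Irf5, Stat2, Ifih1, Ifi204, Ifit2, Mx1, Bst2 and Ifi35. All 10 were present among the 547 genes of the NanoString nCounter mouse immunology panel, which counts single RNA molecules with pairs of colour-coded probes and without amplification. The mice were C57BL/6, males and females, and were sampled at week 7. The 7 Control mice (4 male, 3 female) drank non-acidified water without drug. In the PAT1 group, 7 mice (4 male, 3 female) received 1 course of tylosin in the first weeks of life through the milk of their treated mothers, and in the PAT3 group, 10 mice (4 male, 6 female) received the same course followed by 2 more after weaning. Litters were assigned to a group as wholes and cages were split by sex and group, so that litter and cage cannot be told apart from treatment. The labels do not tie mice to litters, and p-values therefore measure the spread between mice as labelled.

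Type I interferons are made by cells that detect foreign or misplaced nucleic acid. Sensors such as Ifih1 (MDA5, for long double-stranded RNA in the cytosol) and Ifi204 (a DNA sensor of the IFI200 family) switch on Irf3, which is present in most resting cells and starts the first wave of interferon. Secreted interferon acts through its receptor on a complex that holds Stat2 and Irf9 and binds the interferon-stimulated response element (ISRE) in target promoters. Irf7 is itself a target of that complex and amplifies the later waves, whereas Irf5 relays signals from Toll-like receptors. Ifit2, Mx1 and Bst2 (tetherin) restrict viral translation, replication and release, and Ifi35 is an interferon-induced protein with leucine zipper and Nmi-binding regions. In the gut, the resident microbiota is known to keep a low tonic interferon signal going.

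To show which members carry the letters of an ISRE close to their start, the 250 bases before each start site in the RefSeq promoter table (GRCm38.p6) were searched on both strands for a pair of GAAA half-sites with 2 bases between them. For 8 of the 10 members the table held a window (9 windows in all), and 2 of the 8 had the motif, Bst2 and Stat2. Over all windows 2.98% had it, and of the windows of panel genes 5.25%. The 2 stretches are given below, read 5′ to 3′ on the strand of the gene, with the ISRE letters in capitals. Bst2 lies on the minus strand at chr8:71537563-71537622, where 2 overlapping matches form a run of 16 bases from position -130 relative to the start site. Stat2 lies on the plus strand at chr10:128270256-128270315, with the motif in reverse orientation from position -222.
Bst2: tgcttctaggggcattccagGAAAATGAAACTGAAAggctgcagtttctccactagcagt
Stat2: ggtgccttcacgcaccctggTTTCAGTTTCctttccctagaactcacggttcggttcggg
The shorter core, AA and GAAA with 2 bases between them, is part of every ISRE match. It was held by the same 2 members and by 21.3% of all windows. The palindrome of TTC and GAA with 3 bases between them, the letters bound by STAT dimers, was held by Bst2 and Ifit2 and by 7.02% of all windows. A match describes the letters only. For Irf7, Irf5 and Ifit2 the start site in the promoter table lay within the annotated bounds of the gene. The bases before the outermost start were therefore searched only in part for Irf7 and Ifit2, and not at all for Irf5.

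Values are given as the deposited log2 normalized counts, and differences as log2 fold changes from limma with their standard errors (SE) and p-values adjusted by Benjamini-Hochberg over all 547 genes, called at 0.05. Total counts per sample, recovered from the table, ranged from 171671 to 782392. Of the 24 samples, 4 lay under 400000, namely PAT1 replicates 1, 2 and 3, all male, and PAT3 replicate 7, a female, so that 3 of the 7 PAT1 samples and none of the Control samples were shallow. Results that rest on them are given with and without these 4. Without them replicate 4 was the only male left in PAT1, and that fit held no term for sex. The small intestinal markers Ccl25, Pigr and Itln1 were detected in every sample, with lowest counts of 6608, 3267 and 30075. In whole tissue, fewer cells of a type and less RNA per cell cannot be told apart.

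Irf7 and Ifi35 were higher after 1 course and Irf3 and Mx1 after 3 courses, and the other 6 members passed the test in neither comparison with Control. In PAT1 against Control, 2 of the 10 members were called, both higher, where 18.5% of all genes were called, 7.31% higher and 11.2% lower. In PAT3 against Control, 2 of 10 were again called higher, where 31.8% of all genes were called, 13.9% higher and 17.9% lower. Over the 3 groups together, the F-test called 3 members, Irf7 (adjusted p = 0.0258), Irf3 (adjusted p = 0.0158) and Mx1 (adjusted p = 0.0327), where 34.6% of all genes were called. Counted in either direction, the share of members called was close to that of the panel in PAT1 and below it in PAT3. The median log2 fold change of the 10 members was 0.15 in PAT1 and 0.00 in PAT3, beside 0.01 and 0.03 over all genes. The values of no member separated completely between PAT1 and Control or between PAT3 and Control, where those of 6.22% and 9.32% of all genes did. Both comparisons use the same Control mice.

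**Figure D1:**
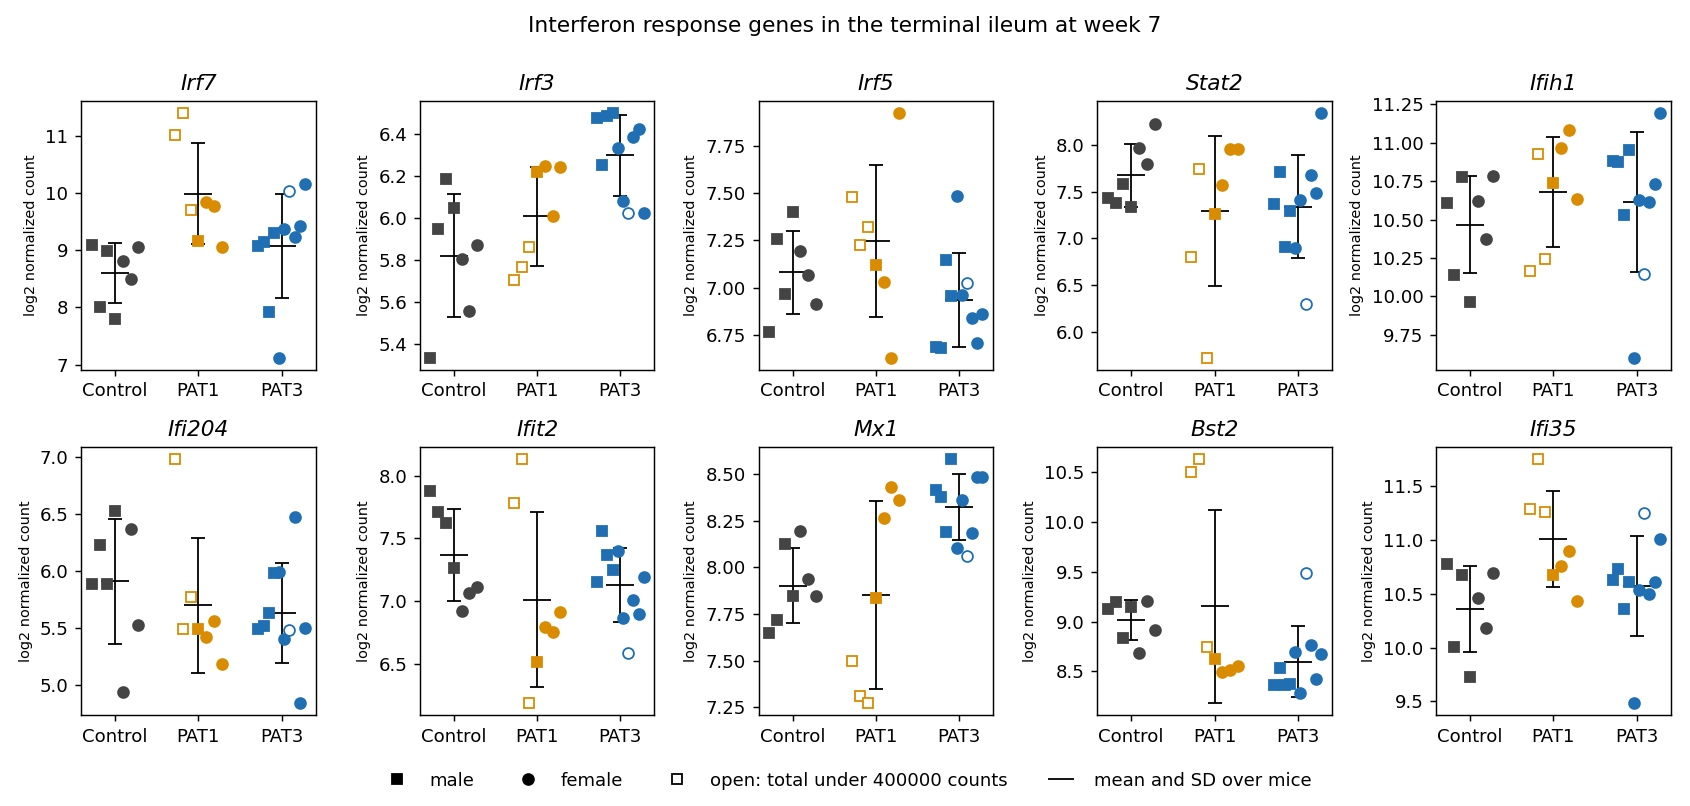
Log2 normalized counts of the 10 genes (vertical axes) in each of 24 mice by group (horizontal axes), with squares for males, circles for females, open symbols for the 4 samples under 400000 counts, and bars for the mean and SD over mice. Irf7 lay highest in 2 open squares of PAT1, and the third, at 9.71, lay among the filled PAT1 symbols. Irf3 and Mx1 lay higher in PAT3 than in most Control mice. Bst2 in PAT1 divided into 2 open squares above 10 and the other samples below 9.

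Irf7, the amplifying factor, had the largest difference of the members. It ranged from 7.80 to 9.09 in Control with a median of 8.81, from 9.06 to 11.39 in PAT1 with a median of 9.76, and from 7.12 to 10.15 in PAT3 with a median of 9.26. Only the lowest PAT1 value lay within the Control range, and the PAT3 values spanned it on both sides. The mean rose from 8.61 ± 0.52 (SD, n = 7) in Control to 9.99 ± 0.89 (SD, n = 7) in PAT1, a log2 fold change of 1.38 (SE 0.41, limma adjusted p = 0.0153), or 2.61-fold, with 7 of 7 PAT1 mice above the Control mean. In PAT3 the mean was 9.07 ± 0.91 (SD, n = 10), with a difference from Control of 0.47 (95% interval -0.30 to 1.24, limma adjusted p = 0.353). The 2 highest Irf7 values of PAT1 came from shallow samples. The 3 shallow samples ranged from 9.71 to 11.39 and the other 4 from 9.06 to 9.84. Without the 4 shallow samples the PAT1 difference was 0.85 (SE 0.42, limma adjusted p = 0.134), with 4 of 4 PAT1 mice above the Control mean. By the methods' analysis of variance with Tukey's test the adjusted p was 0.0760, and in females alone the limma difference was 0.77 (adjusted p = 0.519). With relative depth (the log2 size factor) as a covariate it was 0.97 (adjusted p = 0.0606). No single left-out sample ended the call, with log2 fold changes between 1.15 and 1.54.

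Irf3, the factor that starts the response, was higher after 3 courses. Control values ran from 5.33 to 6.19 with a median of 5.87, PAT1 values from 5.70 to 6.25 with a median of 6.01, and PAT3 values from 6.02 to 6.50 with a median of 6.36. All 10 PAT3 mice were above the Control mean, although the ranges overlapped. Irf3 was 0.48 higher in PAT3 (SE 0.13, limma adjusted p = 0.00615), or 1.39-fold, and the difference in PAT1 was 0.19 (95% interval -0.10 to 0.48, adjusted p = 0.405). The difference between the PAT groups themselves, 0.29, was not past the threshold (adjusted p = 0.136). The PAT3 call stayed in 37 of 39 alternative settings, and was not reached in males alone (0.55, adjusted p = 0.0689) or females alone (0.47, adjusted p = 0.0890). With relative depth as a covariate the PAT1 difference was 0.34 (adjusted p = 0.0345). The raw counts behind Irf3 were low, from 21 to 117 per sample.

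Irf5, which relays Toll-like receptor signals, was called in neither comparison. It spanned 6.77 to 7.40 in Control with a median of 7.07, 6.63 to 7.92 in PAT1 with a median of 7.22, and 6.68 to 7.49 in PAT3 with a median of 6.91. The groups overlapped over most of their ranges. The differences from Control were 0.17 in PAT1 (95% interval -0.17 to 0.50, limma adjusted p = 0.535) and -0.15 in PAT3 (-0.46 to 0.17, adjusted p = 0.477), the latter becoming 0.05 after re-centring each sample on its median.

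Stat2, which carries the interferon receptor signal to the ISRE, varied more within the PAT groups than within Control. It ran from 7.33 to 8.23 in Control with a median of 7.58, from 5.72 to 7.96 in PAT1 with a median of 7.57, and from 6.30 to 8.34 in PAT3 with a median of 7.39. The lowest value of each PAT group was a shallow sample. The differences from Control were -0.39 in PAT1 (SE 0.30, limma adjusted p = 0.421) and -0.33 in PAT3 (SE 0.28, adjusted p = 0.371), and 0.01 and -0.22 without the 4 shallow samples.

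Neither nucleic acid sensor was called. Ifih1 ran from 9.97 to 10.79 in Control with a median of 10.61, from 10.16 to 11.08 in PAT1 with a median of 10.73, and from 9.60 to 11.19 in PAT3 with a median of 10.68. Its differences from Control were 0.21 (95% interval -0.22 to 0.64, limma adjusted p = 0.535) and 0.15 (-0.25 to 0.54, adjusted p = 0.575). Ifi204 ran from 4.94 to 6.52 in Control with a median of 5.89, from 5.18 to 6.98 in PAT1 with a median of 5.49, and from 4.84 to 6.47 in PAT3 with a median of 5.51. The groups overlapped for both genes. The Ifi204 differences were -0.21 (95% interval -0.75 to 0.34, limma adjusted p = 0.639) and -0.28 (-0.78 to 0.23, adjusted p = 0.404). Ifi204 belongs to a family of similar neighbouring genes, and whether its probe separates them was not tested.

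Among the effectors, Mx1 was higher after 3 courses. Mx1 encodes a dynamin-like GTPase against influenza viruses, and most laboratory strains, C57BL/6 among them, carry a defective allele, which the annotation used here lists as a transcribed pseudogene. It ran from 7.65 to 8.20 in Control with a median of 7.85, from 7.27 to 8.43 in PAT1 with a median of 7.83, and from 8.06 to 8.58 in PAT3 with a median of 8.37. Every PAT3 mouse was above the Control mean. The PAT3 difference was 0.42 (SE 0.16, limma adjusted p = 0.0448), or 1.34-fold, and the PAT1 difference -0.05 (95% interval -0.40 to 0.31, adjusted p = 0.894). In PAT1 the 3 shallow males ran from 7.27 to 7.50 and the other 4 mice from 7.83 to 8.43, with no overlap. Without the shallow samples the differences were 0.32 in PAT1 (adjusted p = 0.0832) and 0.45 in PAT3 (adjusted p = 0.00235). The PAT3 call sat close to the threshold and was lost when any 1 of 13 of the 24 samples was left out (Control replicates 1, 2, 4, 6 and 7, PAT1 replicate 4, and PAT3 replicates 1, 2, 4, 6, 8, 9 and 10), with adjusted p between 0.0519 and 0.0973.

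Ifi35 was higher after 1 course. It ran from 9.73 to 10.77 in Control with a median of 10.46, from 10.44 to 11.75 in PAT1 with a median of 10.89, and from 9.48 to 11.24 in PAT3 with a median of 10.61. The 3 highest PAT1 values were the shallow males. The PAT1 difference was 0.65 (SE 0.23, limma adjusted p = 0.0495), or 1.57-fold, with 7 of 7 mice above the Control mean, and the PAT3 difference 0.21 (95% interval -0.23 to 0.65, adjusted p = 0.466). Without the shallow samples the PAT1 difference was 0.33 (adjusted p = 0.287). The call was lost when any 1 of 15 samples was left out (Control replicates 2, 4, 5 and 6, PAT1 replicates 1, 2, 3 and 6, and PAT3 replicates 1, 2, 3, 4, 6, 8 and 9), with adjusted p between 0.0550 and 0.124.

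Bst2 and Ifit2 passed the test in PAT1 only when the shallow samples were left out. Bst2 ran from 8.68 to 9.21 in Control with a median of 9.13, from 8.49 to 10.63 in PAT1 with a median of 8.63, and from 8.29 to 9.49 in PAT3 with a median of 8.48. Both PAT1 values above 10 and the highest PAT3 value came from shallow samples. Over all mice the differences were 0.14 (95% interval -0.47 to 0.74, limma adjusted p = 0.804) and -0.42 (-0.98 to 0.14, adjusted p = 0.246). Without the 4 shallow samples Bst2 was lower than Control in both groups, by -0.47 in PAT1 (SE 0.12, limma adjusted p = 0.00797) and by -0.52 in PAT3 (SE 0.10, adjusted p = 0.000306).

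Ifit2 ran from 6.92 to 7.88 in Control with a median of 7.27, from 6.19 to 8.14 in PAT1 with a median of 6.79, and from 6.58 to 7.56 in PAT3 with a median of 7.17. The PAT1 values reached beyond Control on both sides, and the 2 highest and the lowest of them were shallow samples. Its differences were -0.36 (95% interval -0.85 to 0.14, limma adjusted p = 0.349) and -0.24 (-0.70 to 0.22, adjusted p = 0.428), and without the shallow samples -0.62 (SE 0.18, adjusted p = 0.0131) and -0.18 (adjusted p = 0.329). In the deeper samples the PAT1 and Control values of Bst2 and of Ifit2 did not overlap, as was so for 20.3% of all genes. In that smaller set, 2 members were called in PAT1, both lower, where 28.9% of all genes were called and 15.4% were called lower. In PAT3, 3 members were called (Irf3 and Mx1 higher, Bst2 lower), where 46.1% of all genes were called and 22.7% were called lower. Between PAT3 and PAT1 it was 0 of 10, and 0 of all genes. Of the deeper PAT1 mice only replicate 4 was male, whereas Control held 4 males and 3 females. Mean Ifit2 was 7.62 in Control males, 7.03 in Control females and 6.82 in PAT1 females. For Bst2 these means were 9.08, 8.93 and 8.52. The part of sex in the differences of the deeper set was not tested.

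**Figure D2:**
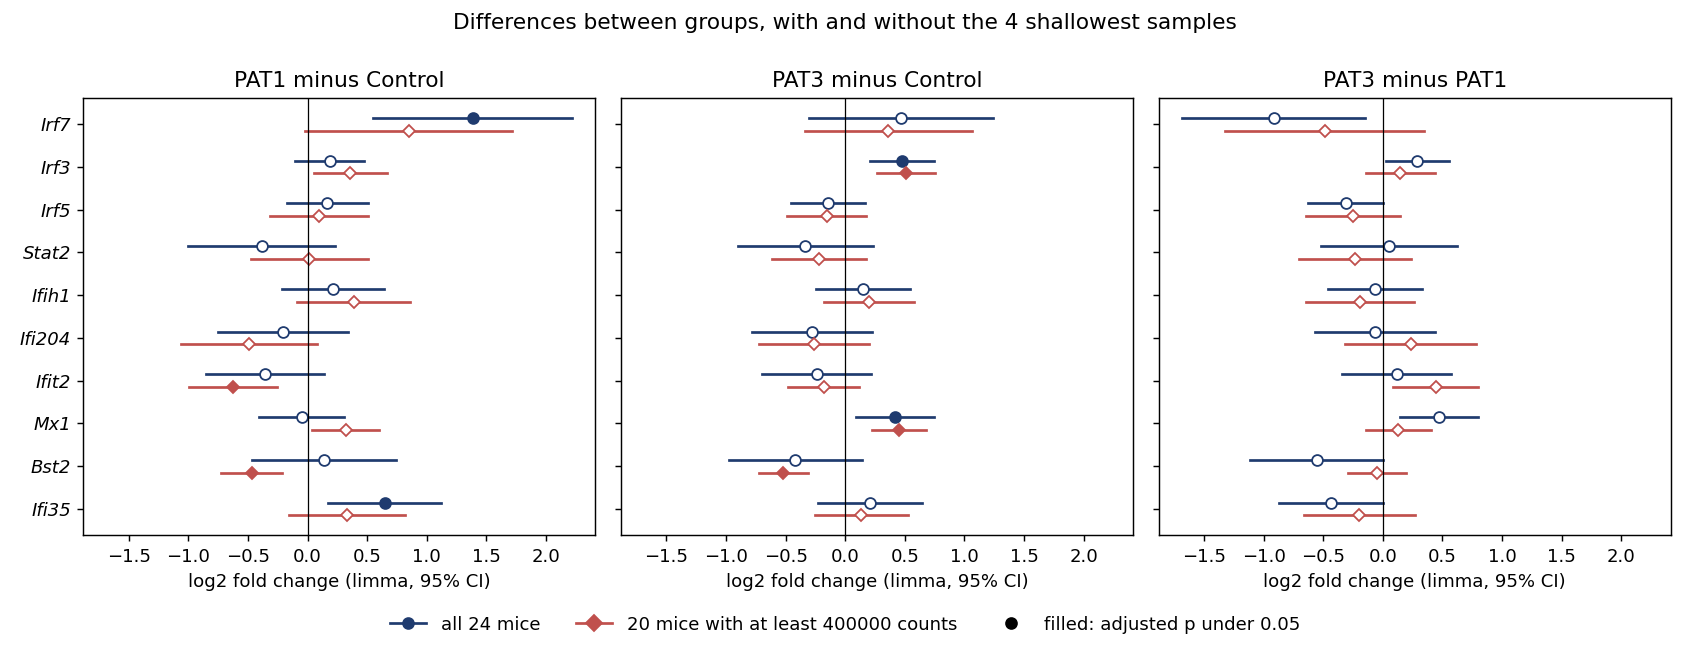
Log2 fold changes (horizontal axes, limma, bars are 95% intervals) of the 10 genes for each PAT group against Control and for PAT3 against PAT1, over all 24 mice (blue circles) and over the 20 mice with at least 400000 counts (red diamonds), filled where the adjusted p was under 0.05. The Irf3 and Mx1 differences in PAT3 were filled in both sets, whereas those of Irf7 and Ifi35 in PAT1 were filled with all mice only and those of Bst2 and Ifit2 in PAT1 in the deeper mice only.

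Between the courses no member passed the test. In PAT3 against PAT1, 4.2% of all genes were called and 0 of the 10 members, whereas at an unadjusted p under 0.05 it was 5 members (Irf7, Irf3, Irf5, Mx1 and Ifi35) and 28.5% of all genes. By the methods' test 0 genes of the panel were called. The sizes were -0.91 for Irf7 (SE 0.37, limma adjusted p = 0.111), 0.47 for Mx1 (SE 0.16, adjusted p = 0.0662), -0.55 for Bst2 (SE 0.27, adjusted p = 0.176) and -0.44 for Ifi35 (SE 0.21, adjusted p = 0.173). These too moved with depth: without the 4 shallow samples they were -0.49, 0.13, -0.05 and -0.20. The call of Mx1 was reached in 8 of 39 settings, among them re-centring on the median (adjusted p = 0.0425) and leaving out PAT1 replicate 5, PAT1 replicate 6 or PAT3 replicate 7 (adjusted p between 0.0205 and 0.0351).

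The test between the sexes called no member. Between females and males 0 members were called, where 0.366% of all genes were, and 3 members had an unadjusted limma p under 0.05 where 11.7% of all genes did. These were Stat2 (0.46 higher in females, adjusted p = 0.401), Ifit2 (-0.41, adjusted p = 0.332) and Mx1 (0.26, adjusted p = 0.426). The effect of the courses by sex was called for 0 members, where 0.183% of all genes were called, and 2 members had an unadjusted p under 0.05, Mx1 (p = 0.00100, limma adjusted p = 0.137) and Bst2 (p = 0.0263, adjusted p = 0.228), where 18.3% of all genes did. In PAT1 the shallow samples were all male. The fourth PAT1 male, with 631905 counts, had Bst2 at 8.63, Ifi35 at 10.67 and Mx1 at 7.83. The shallow males ran from 8.75 to 10.63, from 11.26 to 11.75 and from 7.27 to 7.50 for these genes, and the females from 8.49 to 8.56, from 10.44 to 10.89 and from 8.26 to 8.43. With 1 deeper male, sex and depth were not tested apart in PAT1.

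Relative depth, as the log2 size factor of each sample, was then set against the members after the group means were removed, over 24 mice. The size factor is also the divisor in each normalized value, so that the 2 are not independent. Total counts were not used for these relations. In all, 60 such relations, with depth and with 5 cell-type marker lists, were computed and tested by permutation within groups. They were run for the members only, so that no share of all panel genes stands beside them. Irf3 rose with depth (Pearson r = 0.71, permutation adjusted p = 0.00120, Spearman rho = 0.71, adjusted p = 0.0102). Without the 2 samples farthest in Irf3, Control replicate 1 and PAT1 replicate 1, r was 0.62. Here and below, the 2 samples left out were chosen by the gene and not by depth. Ifi35 fell with depth (r = -0.59, permutation adjusted p = 0.0372, rho = -0.68, adjusted p = 0.0109, and r = -0.77 without 2 samples). Irf7, Mx1 and Bst2 were past the threshold by rho and just short of it by r, each with a permutation adjusted p = 0.0547 for r. Irf7 had r = -0.55 (rho = -0.65, permutation adjusted p = 0.0149, and r = -0.70 without 2 samples), Mx1 r = 0.66 (rho = 0.62, adjusted p = 0.0450, and r = 0.62 without 2) and Bst2 r = -0.66 (rho = -0.61, adjusted p = 0.0374, and r = -0.62 without 2). In the 20 deeper mice r was 0.59 for Irf3 (permutation adjusted p = 0.0746), -0.41 for Ifi35 (adjusted p = 0.218), -0.38 for Irf7 (adjusted p = 0.218), 0.21 for Mx1 (adjusted p = 0.594) and -0.25 for Bst2 (adjusted p = 0.523). The part of depth in the differences between groups was not tested beyond the covariate and the left-out samples.

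**Figure D3:**
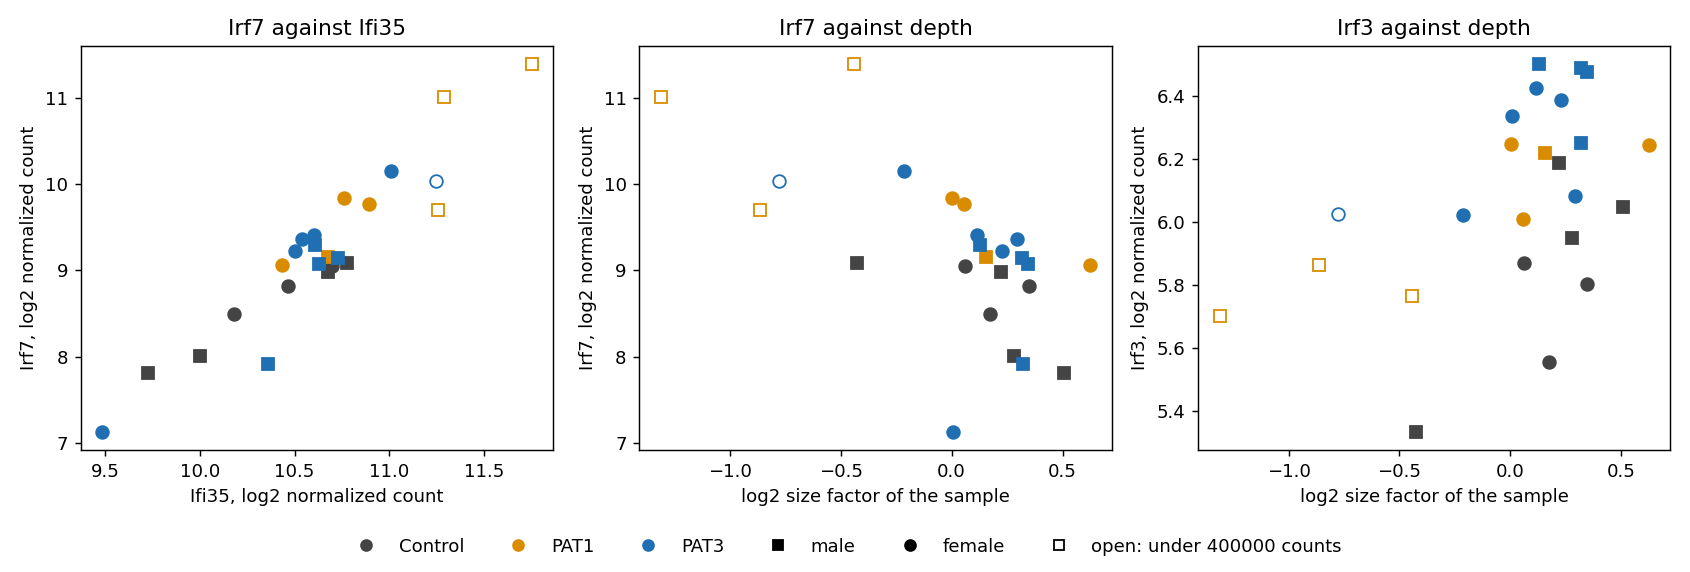
Log2 normalized counts of Irf7 against Ifi35 (left), and of Irf7 (middle) and Irf3 (right) against the log2 size factor, for each of 24 mice coloured by group, with squares for males, circles for females and open symbols for samples under 400000 counts. Irf7 and Ifi35 were correlated in every group (r = 0.91 after removing group means), and the open symbols had the lowest size factors and, for Irf7, values from 9.71 to 11.39.

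The strongest relation within the family joined Irf7 and Ifi35. Across 24 mice, after group means were removed, Pearson r was 0.91 and Spearman rho 0.88 (permutation p = 1e-05, which is the floor set by 100000 permutations and the smallest they can give, adjusted p = 9e-05 over the 9 relations of Irf7). Within Control alone r was 0.99, within PAT1 0.89 and within PAT3 0.92, 0.85 without the 2 samples farthest in Irf7 and 0.91 without the shallow samples. Irf7 and Irf3 ran in opposite directions (r = -0.54, permutation adjusted p = 0.0238, rho = -0.56, adjusted p = 0.0298, and r = -0.59 without 2 samples), but r was -0.34 without the shallow samples (adjusted p = 0.197). The other 7 members were not related to Irf7 past the threshold. For Ifih1 r was 0.47 (permutation adjusted p = 0.0809), and 0.91 in the 20 deeper mice. In that set 5 of the 9 members passed, Ifi35, Ifih1, Stat2 and Mx1 with r above 0 and Irf5 with r below 0 (-0.68). The share of all panel genes that would pass was not counted over 24 mice or in that set. Ifih1 with Ifi35 had r = 0.96 in that set, beside 0.91 for Irf7 with Ifi35.

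As a family the 10 genes did not all vary together. Of the 45 pairs, 24 had r above 0 and 21 below, with a median of 0.04, and 8 passed by permutation with adjusted p under 0.05. Of these 4 were positive, joining Irf7 with Ifi35, and Stat2, Ifih1 and Mx1 with each other (r from 0.53 to 0.71). The other 4 were negative, Irf5 with Ifih1 (r = -0.69), Mx1 with Bst2 (r = -0.67), Irf3 with Bst2 (r = -0.55) and Irf7 with Irf3 (r = -0.54). Pairs of other panel genes were not counted beside them.

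**Figure D4:**
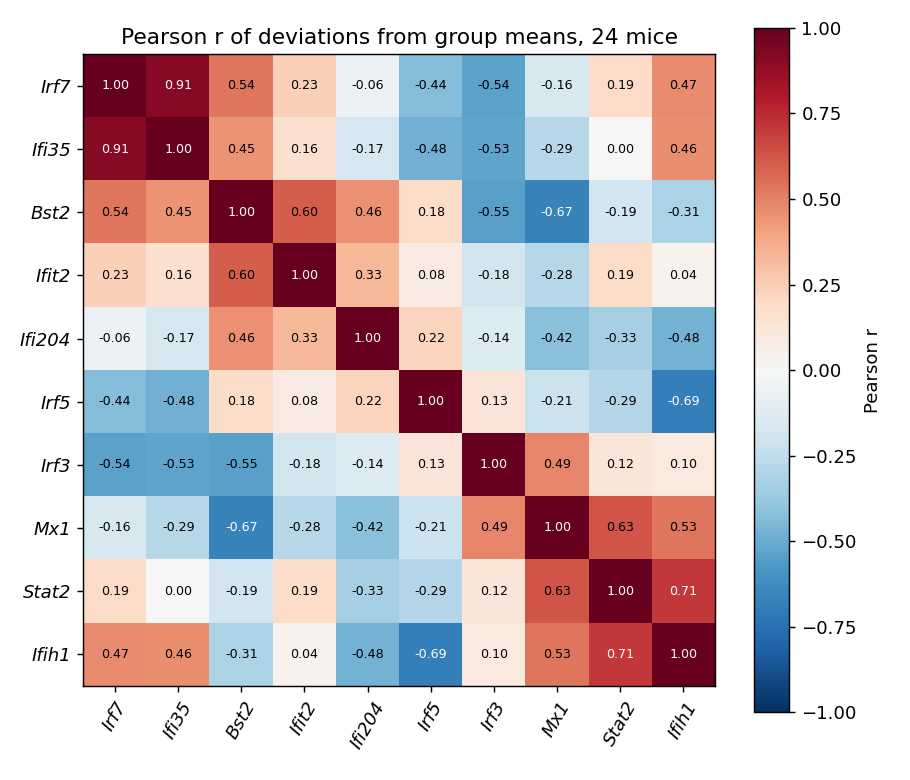
Pearson r between the 10 genes over 24 mice after removing group means, with rows and columns as genes and colour from -1 (blue) to 1 (red). Irf7 with Ifi35 (0.91) and Stat2 with Ifih1 (0.71) are the reddest pairs off the diagonal, and Irf5 with Ifih1 (-0.69) the bluest.

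Several members followed a list of enterocyte genes (Ccl25, Btnl1, Ceacam1, Dpp4 and Abcb1a), which was written after the data had been seen. Set against the mean of these 5, Ifih1 had r = 0.89 (rho = 0.89, permutation adjusted p = 0.00120 for r, and r = 0.81 without 2 samples) and Irf5 r = -0.67 (rho = -0.65, adjusted p = 0.0193, and r = -0.81 without 2). Past the threshold too were Ifi204 (r = -0.60, permutation adjusted p = 0.0394), Bst2 (r = -0.56, adjusted p = 0.0372) and Mx1 (r = 0.52, adjusted p = 0.0372). The share of all panel genes past it was not computed. Irf7 had r = 0.34 over all mice (permutation adjusted p = 0.263) and r = 0.92 in the 20 deeper mice, and Ifi35 had r = 0.39 and r = 0.94. All 5 list genes were above 0 counts in every sample, and the mean of the list ranged from 12.05 to 13.33 in Control, 12.18 to 13.65 in PAT1 and 11.80 to 13.57 in PAT3. The list did not move as one between the groups, since Ccl25 and Btnl1 were called higher and Ceacam1 lower in PAT1, and Ccl25 and Abcb1a higher and Ceacam1 lower in PAT3. With the list mean as a covariate the Irf7 difference in PAT1 was 1.18 (limma adjusted p = 0.0433). The same covariate ended the calls of Ifi35 in PAT1 (0.52, adjusted p = 0.108) and of Mx1 in PAT3 (0.32, adjusted p = 0.0810). Among the other lists, Ifih1 fell with the myeloid list (r = -0.62, permutation adjusted p = 0.0193). By rho alone, Irf7 and Ifi35 rose with the T cell list (rho = 0.57 for each, adjusted p = 0.0374 and 0.0326). Stat2 by rho alone rose with the enterocyte list (0.62, adjusted p = 0.0149) and fell with the myeloid list (-0.54, adjusted p = 0.0380). Irf5 rose with the plasmacytoid dendritic cell list (rho = 0.53, adjusted p = 0.0450). Plasmacytoid dendritic cells, known for high Irf7, were represented by Tcf4, Ccr9, Tlr9 and Irf8 only, whose mean was 8.30 ± 0.07 in Control mice, 8.19 ± 0.14 in PAT1 mice and 8.11 ± 0.18 in PAT3 mice (SD, n = 7, 7 and 10). Of these 4 genes, Irf8 was called lower in PAT1, and Irf8 and Ccr9 were called lower in PAT3. The list did not move as one. In PAT1 Tlr9 was 0.52 higher (limma adjusted p = 0.0666) and the other 3 differences were below 0. In PAT3 2 of the 4 differences were above 0 and 2 below. Irf7 against the mean of these 4 had r = -0.49 (permutation adjusted p = 0.119, rho = -0.35, adjusted p = 0.278). Whether these 4 genes mark plasmacytoid dendritic cells alone in whole ileum was not tested.

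Of the 537 genes outside the family, the 5 whose pattern over the 24 mice was most like that of Irf7 were B2m (r = 0.91), the light chain of MHC class I, Ctss (r = 0.78), a lysosomal protease, Ccl5 (r = 0.77), a T cell chemokine, Gzma (r = 0.76), a cytotoxic granule protease, and Ifngr2 (r = 0.76), a chain of the interferon gamma receptor. In PAT1 against Control, Ctss (0.57, limma adjusted p = 0.0189) and Ifngr2 (0.96, adjusted p = 0.000614) were higher and Ccl5 (-1.32, adjusted p = 0.00568) and Gzma (-1.52, adjusted p = 0.00791) lower, and B2m differed by 0.18 (adjusted p = 0.535). Of the 4 with a promoter window, B2m, Ctss and Gzma held ISRE letters, shown here in capitals on the strand of each gene. The stretches are chr2:122147528-122147587 (plus strand) for B2m, chr3:95526726-95526785 (plus) for Ctss and chr13:113101039-113101098 (minus) for Gzma, in GRCm38.p6.
B2m: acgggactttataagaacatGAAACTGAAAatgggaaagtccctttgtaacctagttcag
Ctss: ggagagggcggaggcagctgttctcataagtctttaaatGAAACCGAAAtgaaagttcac
Gzma: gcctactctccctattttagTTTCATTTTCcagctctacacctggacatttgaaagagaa

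Other interferon pathway genes of the panel were called in both directions. Over all genes, 7.31% were called higher and 11.2% lower in PAT1, and 13.9% and 17.9% in PAT3. Of 3 further interferon regulatory factors, 2 were lower in PAT1 and 3 in PAT3, with Irf1 at -0.66 (limma adjusted p = 0.00371) and -0.63 (adjusted p = 0.00182) and Irf4, a lymphocyte factor, at -0.93 in PAT3 (adjusted p = 0.00275). Of 6 genes of receptor signalling, 1 was lower and 1 higher (Ptpn6, 0.49) in PAT1 and 2 were lower in PAT3 (Socs3 and Socs1). Socs3, an inhibitor of cytokine signalling, was at -1.31 and -1.54. Of 7 other interferon-induced genes, 4 were lower and 1 higher in PAT1, and 5 lower and 1 higher in PAT3. Cxcl9 was at -1.34 and -1.95, Tap1, the peptide transporter, at -0.80 and -1.24, and the chemokine Cxcl11 rose by 1.20 and 1.25. Most of these lower genes also respond to interferon gamma.

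Several receptor chains were higher. Of the whole panel, 7.31% were called higher in PAT1 and 13.9% in PAT3, and 11.2% and 17.9% lower. Of 9 interferons and receptors, 4 were higher in PAT1 and 6 in PAT3, and none was lower. Without the 4 shallow samples 4 were higher in PAT1 and 6 in PAT3, and Ifng, the gene of interferon gamma, was lower in PAT3 (-0.61, limma adjusted p = 0.0431). The 4 in PAT1 were then not the same genes. Ifna1 was no longer called (0.74, adjusted p = 0.135), and Ifnar1, a chain of the type I receptor, was (0.40, adjusted p = 0.00777). The PAT3 count was 3 when Control replicate 1, 5 or 6 or PAT3 replicate 9 was left out, 1 in males alone and 0 in females alone. Ifngr2 was 0.96 and 0.61 higher, Ifngr1 0.57 and 0.58, and Il10rb, shared with the interferon lambda receptor, 0.71 and 0.39. Both chains of the type I receptor were higher in PAT3, Ifnar1 by 0.35 (limma adjusted p = 0.0271) and Ifnar2 by 0.28 (adjusted p = 0.0448). Ifna1 was 1.19 and 0.92 higher, but its median count was 8.5 per sample, and Ifna1 has many near-identical relatives. Ifnb1, with a median count of 7, was called in neither. Of 12 sensing genes, 1 was lower in PAT1 (Tmem173, the DNA-signalling adaptor STING, -0.57, limma adjusted p = 0.00371), and in PAT3 Tmem173 was lower (-0.65) and Traf3 higher (0.48, adjusted p = 0.0310). Without the 4 shallow samples 4 of the 12 sensing genes were called in each group, where 28.9% of all genes were called in PAT1 and 46.1% in PAT3. Tmem173 was lower and Traf3 and Ddx58 (RIG-I) higher in both, Tlr3 was higher in PAT1 and Traf6 higher in PAT3. T cell and myeloid markers were lower beside these lists. Control mice had a mean of 6.51 ± 0.14 over 7 T cell genes, PAT1 mice 5.95 ± 0.37 and PAT3 mice 5.43 ± 0.34 (SD, n = 7, 7 and 10), with 2 of 7 called lower in PAT1 and 6 of 7 in PAT3. For 7 B cell genes the means were 5.41 ± 0.69, 6.07 ± 1.66 and 4.68 ± 0.40, with 0 of 7 called in PAT1 and 1 of 7 lower in PAT3. For 6 myeloid genes the means were 8.10 ± 0.21, 7.78 ± 0.14 and 7.84 ± 0.14, with all 6 differences below 0 and Itgam alone called lower in each group. The part of these cells in the results was not tested.

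**Figure D5:**
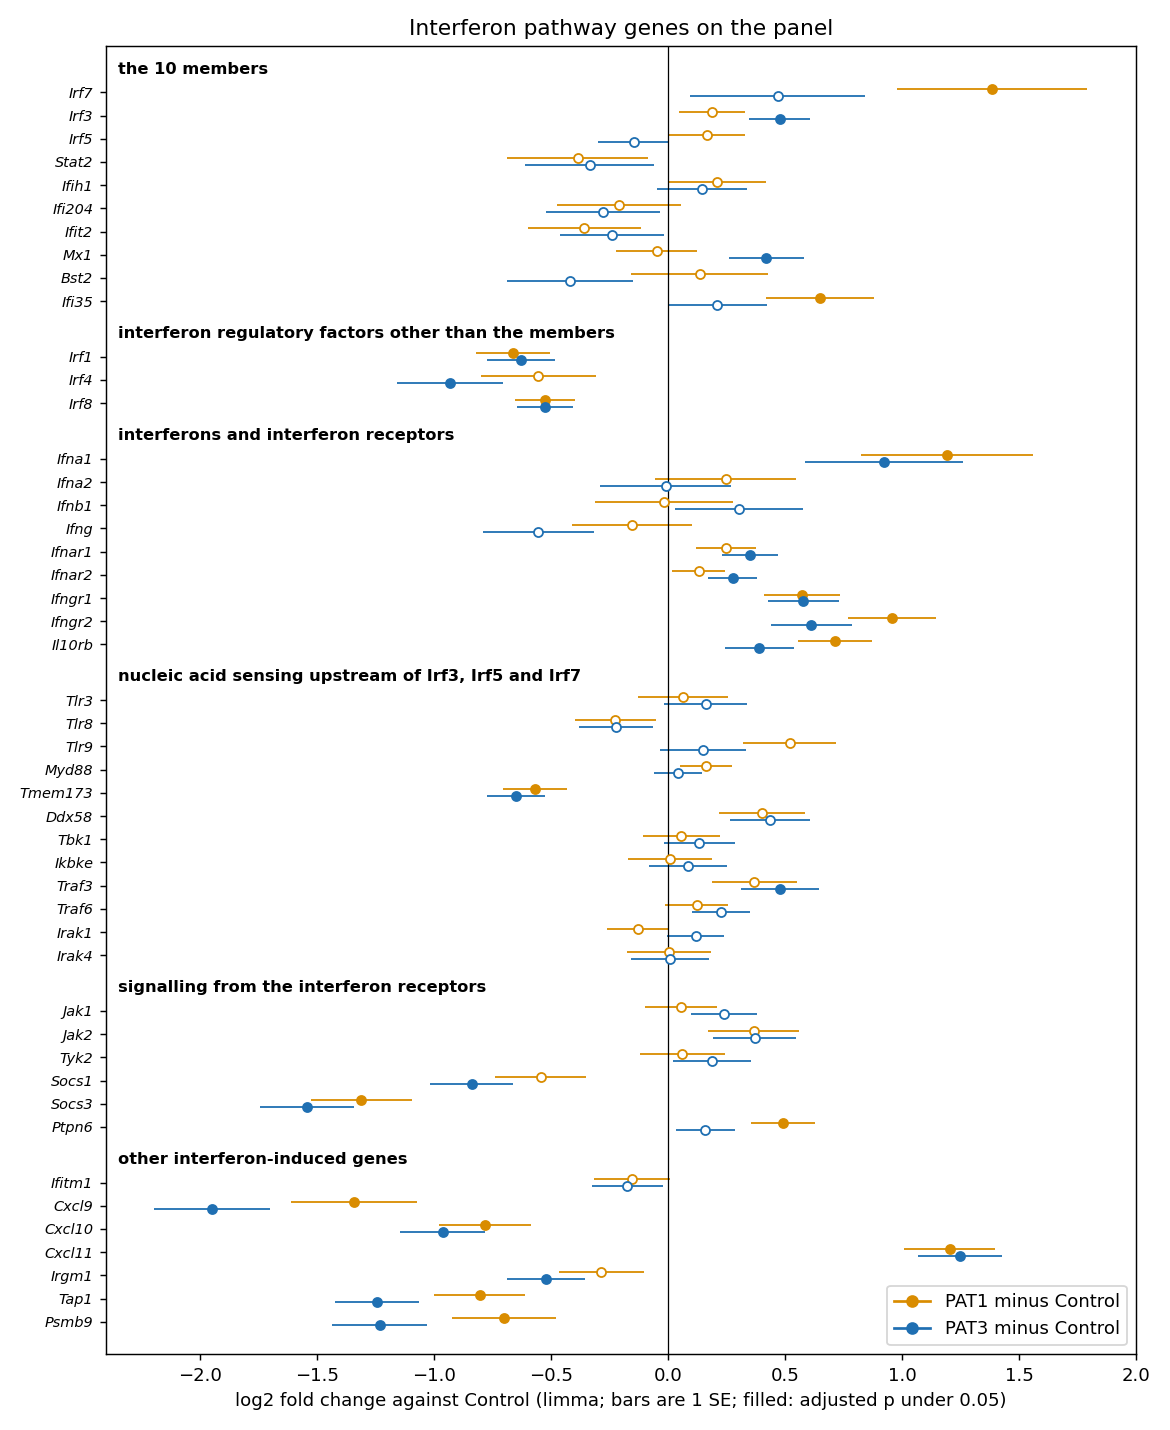
Log2 fold changes against Control (horizontal axis, limma, bars are 1 SE, filled where the adjusted p was under 0.05) for the 10 genes and for the other interferon pathway genes of the panel, in PAT1 (orange) and PAT3 (blue). Irf1, Tap1 and Cxcl9 lay below 0 in both groups, Cxcl11 and the interferon gamma receptor chains above 0, and most of the 10 genes close to 0.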

How the data were processed

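RNA from terminal ileum was counted on the NanoString nCounter GX mouse immunology panel. The authors normalized the counts with DESeq2 and deposited them on the log2 scale, and the version was not given in the sources used here. Since 2 to the power of each deposited log2 value is a count divided by a size factor, whole counts and size factors were recovered from the 547 genes and 24 samples (100.0% of values above 0 came out whole within 0.01). Differences were tested with limma 3.58.1 in R 4.3.3 over all genes and the 3 groups, without covariates, with Benjamini-Hochberg adjustment. The methods' analysis of variance with Tukey's test was an alternative, beside other normalizations, covariates, weights, each sex alone and each sample left out. Relations were tested by 100000 permutations within groups on deviations from group means. Samples were grouped by the labels, whose numbers per PAT group differ from those in the study's legend. The members and gene lists were chosen with earlier results of these data known, and the enterocyte list was written after the data had been seen. All 10 members, up to 4 called genes per pathway list and the 5 genes most like Irf7 were to be named, and 1 gene of the receptor signalling list is not reported here. Omitting the 4 shallow samples was chosen after seeing the data. Promoters came from RefSeq (GRCm38.p6). Scripts were tested on simulated data.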

Additional observations from a re-analysis of the deposited data

Results flagged for a closer look

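A total of 3 samples stood apart from their group by Dixon's criterion, among 30 sets of 1 gene in 1 group, of which chance alone would mark about 1 in 20 groups. Ifi204 in PAT1 replicate 1, the shallowest sample, was 6.98, and the gap to the next value made up 0.673 of the range of PAT1. Bst2 in PAT3 replicate 7, another shallow sample, was 9.49, with a gap of 0.603 of the range of PAT3. Ifi35 in PAT3 replicate 5, a sample that was not shallow, was 9.48, the lowest of PAT3, with a gap of 0.496 of the range.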

How the results depend on the processing

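In 39 settings beside the reported one, the count of members called in PAT1 (2) became 1 with quantile normalization, sample weights, or the B cell or enterocyte mean as a covariate (Irf7 in each), 1 with the size factor as a covariate (Irf3), and 0 by the methods' test and in females alone. In PAT3 (2) it became 1 by the methods' test, in males alone, and with sex, the B cell mean or the enterocyte mean as a covariate, 0 in females alone, and 3 with sample weights and without the shallow samples. In PAT3 against PAT1 (0) it became 1 with median re-centring, the filter on genes under 5, sample weights and the enterocyte covariate, and 3 in males alone. Over the 3 groups (3) it became 0 in females alone, 2 with the size factor or B cell covariate, and 4 with re-centring, voom, sample weights, the enterocyte covariate and without the shallow samples. The members related to Irf7 (2) became 1 with quantile normalization and 5 without the 4 shallow samples. Leaving out 1 sample at a time gave 1 to 2 members in PAT1, 1 to 2 in PAT3, 0 to 1 between them, 1 to 4 over the 3 groups (1 without PAT1 replicate 2) and 1 to 4 related to Irf7 (4 without PAT1 replicate 1, 1 without PAT1 replicate 2 or PAT3 replicate 10). Median re-centring raised every log2 fold change by 0.14 in PAT1 and 0.19 in PAT3.

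Signs turned as follows, all in differences that had not been called. In PAT1, Mx1 became 0.096 with re-centring, 0.14 with the size factor, 0.36 in females and 0.32 without the shallow samples. Bst2 became -0.092 with sample weights, -0.22 with the size factor, -0.41 in females and -0.47 without the shallow samples. Without the shallow samples Stat2 became 0.015, and with the enterocyte covariate Ifih1 became -0.045 and Ifi204 0.017. In PAT3, Irf5 became 0.045 with re-centring and 0.047 with quantile normalization, Ifih1 -0.063 with the enterocyte covariate and -0.11 in females, and Ifi204 0.0057 in females. In PAT3 against PAT1, Stat2 became -0.028 with sex, -0.18 with the size factor, -0.48 in females and -0.23 without the shallow samples. Ifih1 became 0.29 in males. Ifi204 became 0.060 with quantile normalization, 0.0022 with voom, 0.067 with the size factor, 0.23 in females and 0.23 without the shallow samples, and in females Mx1 became -0.073 and Bst2 0.20. Leaving out 1 sample gave -0.14 to 0.049 for Mx1 and -0.11 to 0.25 for Bst2 in PAT1, and in PAT3 against PAT1 -0.21 to 0.17 for Stat2, -0.15 to 0.048 for Ifih1, -0.16 to 0.15 for Ifi204 and -0.021 to 0.30 for Ifit2. The cause was not tested. No paired analysis was run, since the groups hold different mice. The labels give no replicate numbers, and those used here follow the order of deposit. Among the pathway lists, the sensing genes called ranged from 0 to 4 in PAT1 and 1 to 4 in PAT3, the interferons and receptors from 0 to 4 and 0 to 7, the further regulatory factors from 0 to 3 (0 with re-centring) and 1 to 3, receptor signalling from 1 to 4 and 2 to 5, and the other induced genes from 1 to 6 and 5 to 6. Leaving out 1 sample gave 1 to 2 sensing genes in PAT1 (2 without Control replicate 4 or PAT1 replicate 3 or 5) and 1 to 3 in PAT3 (1 without Control replicate 1 or PAT3 replicate 3 or 4). The 4 shallow samples and the low counts of Irf3 and Ifi204 limit precision.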
